A study of Rattus norvegicus with 6 samples.

Results

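The genes described here are 10 genes used as markers of the endothelial cells of blood vessels, and their messenger RNA was measured in retinas of control and diabetic rats. The members were chosen by name, as Pecam1, Cdh5, Cldn5, Kdr, Flt1, Tek, Tie1, Vwf, Esam and Egfl7, and each was taken as the row of the deposited table that carried its symbol. Of the 10 genes 9 were matched to a row, among 34170 genes in all, and Pecam1 was not analysed here. Of these 9 genes 8 had a value above 0 in at least 1 library, and 6 reached the mean of 0.5 FPKM that was required for testing. FPKM count sequenced fragments per length of the gene and per size of the library, so levels of different genes can be set side by side.

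All 6 libraries were made from retina of male rats of the Sprague-Dawley stock, which is outbred and albino. The 3 control rats (labelled WT) were injected with citrate buffer and the 3 diabetic rats with streptozotocin in the abdomen on 5 days in a row. Streptozotocin, given at 60 mg/kg after a fast of 12 h, is toxic to the pancreatic cells that make insulin, and a fasting blood glucose above 16.7 mmol/L at 1 week after the last injection counted as diabetic. Neither the age of the rats nor the day of retina collection is known from the labels. As a model it rests on a toxin, and not on autoimmunity. Poly-A RNA of the whole retina was sequenced, and the libraries held between 12417686 and 19115426 fragments. The tissue label was checked on markers of rod photoreceptors, of which the rod transducin gene Gnat1 ranged from 4779 to 5146 FPKM in the control rats and from 3286 to 3638 FPKM in the diabetic rats. The summed level of 8 lens and cornea markers was 226.5 FPKM in control 3 against 10.7 to 37.4 FPKM in the other 5 libraries. The labels give each library its own body weight, and the p-values measure the spread between these 6 animals.

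Endothelial cells form the inner lining of vessels, and in the retina they seal the capillaries of the inner layers into the blood-retina barrier. VEGF, made by neurons and glia, acts on them through the receptor kinases Kdr and Flt1, and the angiopoietins act through the receptor kinase Tek. In diabetic retinopathy these capillaries are known to leak and to be lost over time. The comparison of control with diabetic retina asks whether the messenger RNA of such genes differs with the disease.

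The endothelial genes spanned a wide range of levels in these retinas, with Kdr far above the others. Cdh5, which encodes VE-cadherin of the adherens junction and is among the most specific endothelial markers, had a mean of 0.239 FPKM over the 6 libraries and rested on 92 fragments in all. Kdr had a mean of 49.6 FPKM and rested on 30576 fragments. None of the 6 genes tested passed a Benjamini-Hochberg adjusted p of 0.05 between diabetic and control retina in limma, and the largest difference by unadjusted p was that of Esam, with means of 7.98 ± 0.934 FPKM in the control and 6.37 ± 0.589 FPKM in the diabetic rats (SD, n = 3 each). In a bulk sample, fewer endothelial cells and less RNA per cell cannot be told apart.

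In the table, Kdr is ENSRNOG00000046829 at chr14:34727623-34787183, Flt1 is ENSRNOG00000000940 at chr12:9034308-9205905, and Tek is ENSRNOG00000008587 at chr5:113725717-113852799. Esam is ENSRNOG00000033217 at chr8:39997875-40008809, Egfl7 is ENSRNOG00000019388 at chr3:4034921-4043936, and Vwf is ENSRNOG00000019689 at chr4:158088505-158219523. These 6 genes lie on the plus strand, and Tie1 (ENSRNOG00000020173, chr5:137294544-137321121) and Cdh5 (ENSRNOG00000013324, chr19:1023683-1074365) lie on the minus strand. The table and labels do not state the build of these coordinates. Among the 8 genes, Tek overlaps the pseudogene AABR07049286.1, listed at 0, and Egfl7 overlaps Mir126a (mean 0.167 FPKM), each on the other strand.

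By mean level the order was Kdr, Esam, Flt1, Egfl7, Tek, Vwf, Tie1 and Cdh5. Kdr was above Esam and Esam above Flt1 in all 6 libraries, and these ranges did not overlap. The lowest value of Kdr was 42.4 FPKM, and the highest of Esam was 8.97 FPKM. From Flt1 downwards, the ranges of neighbours in the order overlapped. Flt1 was nevertheless above Egfl7, Egfl7 above Tek and Tie1 above Cdh5 within each of the 6 libraries. Tek and Vwf were not ordered, since Tek was the higher of these in 3 of 6 libraries. Among the 23418 genes above 0 in any library, Kdr stood at the 92.7th percentile of mean level, Esam at the 62.0th, Flt1 at the 47.7th and Cdh5 at the 23.6th.

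**Figure D1:**
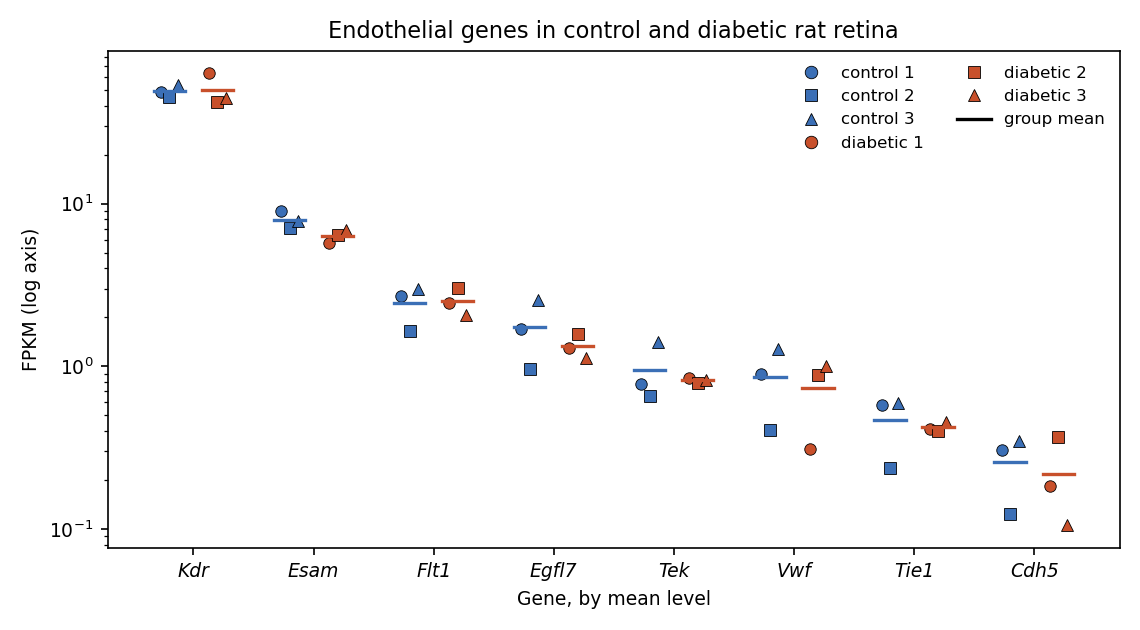
FPKM on a log axis for the 8 genes above 0, ordered by mean level, with 1 point per library (circle, square and triangle for replicates 1, 2 and 3) and a bar at the mean of each group. Kdr lies between 42.4 and 63.4 FPKM, and Cdh5 lies between 0.105 and 0.367 FPKM. The groups do not overlap in Esam alone.

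The receptors were led by Kdr, the main signalling receptor for VEGF, which has also been described in retinal neurons and glia. It measured 48.5, 45.2 and 53.8 FPKM in the control rats 1, 2 and 3, against 63.4, 42.4 and 44.5 FPKM in the diabetic rats 1, 2 and 3. Diabetic 1 was the highest of the 6 libraries, and the other 2 diabetic libraries were the lowest. The means were 49.1 ± 4.35 and 50.1 ± 11.6 FPKM (SD, n = 3 each), and the log2 difference was 0.01 (standard error 0.16) with a 95% interval from -0.37 to 0.38 (adjusted p = 0.986, limma). Without diabetic 1 the log2 difference was -0.17 (adjusted p = 0.417), in a range of adjusted p from 0.417 to 0.999 over all alternatives.

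Flt1, which binds VEGF strongly and signals weakly, so that it limits the VEGF that reaches Kdr, measured 2.71, 1.65 and 2.99 FPKM in the control rats, against 2.45, 3.04 and 2.07 FPKM in the diabetic rats. Control 2 was the lowest library and diabetic 2 the highest, and the groups overlapped. The log2 difference was 0.05 with an interval from -0.49 to 0.60 (adjusted p = 0.923, limma), and without control 2 it was -0.16. Kdr was between 13.9 and 27.4 times the level of Flt1, depending on the library. Kdr alone made up 75.3% to 84.9% of the summed FPKM of the 8 genes, and which cells of the retina its transcripts came from was not tested.

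Tek, the angiopoietin receptor also called Tie2, measured 0.772, 0.653 and 1.40 FPKM in the control rats, against 0.841, 0.790 and 0.824 FPKM in the diabetic rats. The 3 diabetic values lay close together and inside the range of the controls, where control 3 was the highest. Its log2 difference was -0.10 with an interval from -0.68 to 0.49 (adjusted p = 0.863, limma). Tie1, an orphan receptor that modulates signalling by Tek, measured 0.577, 0.235 and 0.597 FPKM in the control rats, against 0.413, 0.400 and 0.451 FPKM in the diabetic rats, again inside the range of the controls. It was below the level required for testing. In a fit with no filter on low values its log2 difference was -0.05 with an interval from -0.51 to 0.41 (adjusted p = 0.920, limma).

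Promoter windows of RefSeq (build GRCr8, 250 bases before to 50 bases after the annotated start) were matched for 5 of the 10 genes, namely Cldn5, Egfl7, Flt1, Kdr and Tie1. The windows of 3 receptor genes are shown because their levels differ widely while all 3 shared 1 order of the control libraries, described with the libraries. They are written 5′ to 3′ on the strand of the gene, and the capitals mark AGGAAG or its reverse complement CTTCCT, 1 form of the core that ETS factors bind. ETS factors are known regulators of endothelial genes. The window of Kdr is at chr14:32571813-32572112 on the plus strand, that of Flt1 at chr12:12333180-12333479 on the plus strand and that of Tie1 at chr5:137304932-137305231 on the minus strand.
Kdr: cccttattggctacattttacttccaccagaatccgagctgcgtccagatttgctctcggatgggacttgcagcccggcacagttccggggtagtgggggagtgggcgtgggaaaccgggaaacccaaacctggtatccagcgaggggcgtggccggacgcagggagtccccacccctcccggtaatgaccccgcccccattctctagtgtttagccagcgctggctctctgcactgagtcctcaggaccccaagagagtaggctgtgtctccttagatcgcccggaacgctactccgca
Flt1: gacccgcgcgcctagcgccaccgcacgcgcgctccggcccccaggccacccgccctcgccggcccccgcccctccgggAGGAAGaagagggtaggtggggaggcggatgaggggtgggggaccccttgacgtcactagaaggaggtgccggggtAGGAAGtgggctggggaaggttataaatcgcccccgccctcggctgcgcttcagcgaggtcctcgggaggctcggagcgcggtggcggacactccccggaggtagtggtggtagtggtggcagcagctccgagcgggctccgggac
Tie1: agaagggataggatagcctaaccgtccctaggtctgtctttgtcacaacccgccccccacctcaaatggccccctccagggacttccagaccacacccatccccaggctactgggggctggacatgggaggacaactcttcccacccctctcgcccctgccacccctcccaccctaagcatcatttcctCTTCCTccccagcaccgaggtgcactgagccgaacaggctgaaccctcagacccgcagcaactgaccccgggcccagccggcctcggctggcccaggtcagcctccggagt
The motif occurred 2 times in the Flt1 window, 1 time in the Tie1 window and 0 times in the Kdr window. At least 1 match was present in 34.5% of 33469 windows of all genes, so its presence is common. The variant CGGAAG or CTTCCG was in 0 of the 3 windows and in 16.6% of all windows. One or the other of AGGAAG and CGGAAG was in 45.5% of all windows, and with 0 matches of CGGAAG the motifs did not overlap in these 3 windows. Other forms of the ETS core were not counted, so 0 matches in the Kdr window do not show that it lacks the core. The box TATAAA or TTTATA was in the Flt1 window and in 14.2% of all windows. The GC content was 61.0% for Kdr, 72.7% for Flt1 and 64.3% for Tie1, against a median of 51.7% over all windows. Which start sites were used in these retinas was not measured.

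Among the junction genes, Cdh5 measured 0.306, 0.123 and 0.349 FPKM in the control rats, against 0.183, 0.367 and 0.105 FPKM in the diabetic rats. Both groups had a low library, control 2 with 6 fragments and diabetic 3 with 8 fragments, and the highest library was diabetic 2 with 25 fragments. The exact Poisson 95% interval of the lowest library was 0.0454 to 0.207 FPKM and that of the highest was 0.237 to 0.541 FPKM, so these intervals did not overlap. They cover counting error only. In a fit with no filter the log2 difference was -0.08 with an interval from -0.53 to 0.37 (adjusted p = 0.860, limma). The added 0.5 FPKM compresses differences at this level. The log2 difference was -0.20 with a pseudocount of 0.1 and -0.26 with voom on the rebuilt fragments.

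Cldn5, which encodes the main tight junction claudin of brain and retinal capillaries, was listed at 0 in all 6 libraries. A count of 3 fragments would correspond to between 0.111 and 0.174 FPKM for this gene of 1425 nt. The table gives Cldn5 (ENSRNOG00000045811) the interval chr11:86356294-86357718, minus strand, where it overlaps Cdc45 on the plus strand (mean 0.854 FPKM). The labelled kit is not described as strand-specific, and the part of this overlap in the value of 0 was not tested.

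Esam, an adhesion molecule of endothelial junctions that is also found on platelets, measured 8.97, 7.12 and 7.84 FPKM in the control rats, against 5.74, 6.46 and 6.91 FPKM in the diabetic rats. All 3 diabetic libraries were below all 3 controls, and the gap between the nearest libraries was small. The log2 difference was -0.30 (standard error 0.12) with an interval from -0.59 to -0.01, with an unadjusted p of 0.0462 and an adjusted p of 0.245 in limma. It did not pass. Esam was the single member with groups that did not overlap, of 6 tested, where 26.2% of all tested genes had no overlap. It was also the single member with an unadjusted p below 0.05, where 19.9% of all tested genes had one. With no filter its unadjusted p was 0.0512 in limma, with an interval from -0.60 to 0.0022. Nor was this p below 0.05 with TPM, voom, the length trend removed or a replicate block. The same held when control 1, control 3, diabetic 1 or diabetic 2 was left out. The adjusted p lay between 0.194 and 0.477 over the alternatives, and the log2 difference was -0.18 with FPKM rescaled to TPM, where the median of all tested genes moved to 0.13.

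The secreted members were lowest in different libraries. Vwf, which encodes the von Willebrand factor that endothelial cells store in Weibel-Palade bodies, measured 0.891, 0.403 and 1.28 FPKM in the control rats, against 0.309, 0.883 and 1.00 FPKM in the diabetic rats. Control 2 and diabetic 1 were well below the other 4 libraries. They held 43 and 52 fragments of Vwf, and their exact Poisson intervals of 0.291 to 0.543 and 0.231 to 0.406 FPKM did not reach the intervals of the others. The log2 difference was -0.14 with an interval from -0.98 to 0.71 (adjusted p = 0.862, limma). This interval was the widest of the members on the scale of log2(FPKM + 0.5), which understates changes of low genes such as Cdh5.

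Egfl7, a secreted protein of the vessel wall whose gene carries the endothelial microRNA miR-126, measured 1.69, 0.966 and 2.57 FPKM in the control rats, against 1.30, 1.58 and 1.13 FPKM in the diabetic rats. The diabetic values lay within the range of the controls, where control 3 was the highest and control 2 the lowest. The log2 difference was -0.23 with an interval from -0.91 to 0.45 (adjusted p = 0.694, limma), and without control 3 it was 0.03.

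**Figure D2:**
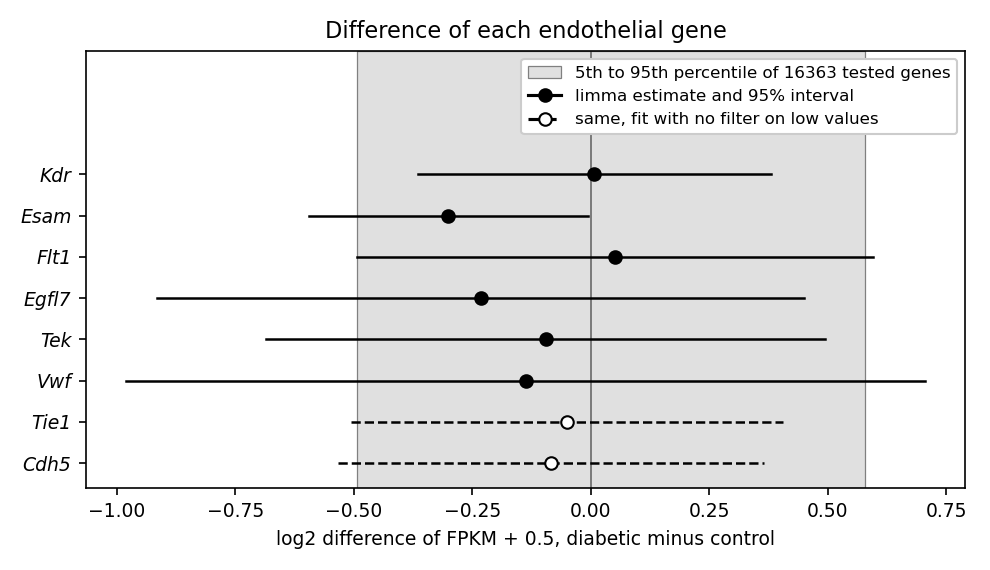
Log2 difference of FPKM + 0.5, diabetic minus control, for the 8 genes above 0, with 95% intervals from limma; open circles with broken lines mark the 2 genes under the level required for testing, from the fit with no filter. The grey band spans the 5th to 95th percentile of 16363 tested genes, from -0.49 to 0.58. All 8 estimates lie inside this band, and the interval of Esam alone leaves out 0. In the fit with no filter, not drawn for Esam, its interval from -0.60 to 0.0022 includes 0.

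Counted together, 0 of the 6 tested members passed in limma, where 0% of the 16363 tested genes passed. At an unadjusted p below 0.05 there was 1 member, lower in diabetic retina, where 10.7% of tested genes were lower and 9.15% higher at that level. With voom on the rebuilt fragments, 0 members passed and 0 had an unadjusted p below 0.05. Of the 8 genes above 0, 6 had a negative and 2 (Kdr and Flt1) a positive log2 difference, with a median of -0.09, and the 16363 tested genes had a median of 0.00034 with 49.9% negative. The split was 8 negative and 0 positive with the length trend removed, and 5 negative and 3 positive with TPM or voom. In 3 genes (Tek, Tie1 and Egfl7) the diabetic values lay inside the range of the controls, in 2 (Kdr and Cdh5) the control values lay inside the range of the diabetic group, in 2 (Flt1 and Vwf) the ranges overlapped in part, and in 1 (Esam) they did not overlap, where 20.5% of the 23418 genes above 0 had no overlap. The split of all genes at an unadjusted p below 0.05, 1498 higher and 1757 lower, was 3009 and 692 with TPM, 1140 and 2325 with the library medians set equal, and 2189 and 1213 with voom. The 95% intervals of the other 7 genes all included differences as large as that of Esam, in either direction.

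The members varied together among the controls. Control 2 was the lowest control in 8 of the 8 genes above 0, where it was the lowest in 28.1% of all tested genes. Control 3 was the highest control in 7 of these 8 genes, with Esam as the exception, where it was the highest in 36.2% of tested genes. Both held in 7 of 8 members, in 15.5% of tested genes and in 16.9% of the 10233 genes with a mean from that of Cdh5 up to 10 FPKM. Both also held in 11 of 25 other endothelial genes and in 6 of 14 mural cell genes. They held in 1 of 6 Muller glia genes and in 0 of 10 microglia and leukocyte genes. Both held in 6 of 18 genes of VEGF, angiopoietin and Notch signalling and in 5 of 16 barrier genes. The same was so in 2 of 7 endothelial activation genes and in 2 of 7 fibroblast and lymphatic genes. In the lists of platelets, red blood cells, pigment epithelium, melanocytes, lens and cornea, and rods, both held in 0 genes. Control 2 was the lowest control in 9 of the 14 mural and 5 of the 6 Muller glia genes. These are counts within 3 libraries and carry no test.

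Summed over the 7 members other than Kdr, the libraries held 55.1, 34.5 and 61.2 CPM (fragments scaled to a common library total) in the control rats 1, 2 and 3, against 41.3, 53.3 and 44.6 CPM in the diabetic rats 1, 2 and 3. The 3 diabetic libraries lay between the lowest and the highest control. Esam and Flt1 held most of the fragments in each sum. They gave 309 and 322 of 933 in control 1, and 174 and 139 of 428 in control 2. The exact Poisson interval, which covers counting error only, was 31.3 to 37.9 CPM in control 2 and 57.0 to 65.6 CPM in control 3. Without Esam, the exception to the order, the sums were 36.8, 20.5 and 45.6 CPM in the control rats, against 29.2, 39.7 and 30.8 CPM in the diabetic rats. Control 2 also had the fewest fragments of all libraries, 12417686, against 13035314 in control 3 and 16941864 in control 1. Control 3 had the high lens signal given above, with 130.4 FPKM of the lens gene Cryaa. The part of depth and of carried-over tissue in this order was not tested. Without control 3 the median log2 difference of the 8 genes was 0.06, and 7 were positive and 1 (Esam) negative, with 0.03 for Egfl7, 0.12 for Tek, 0.09 for Vwf, 0.05 for Tie1 and 0.0026 for Cdh5. Without control 2 the median was -0.24 and all 8 were negative.

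**Figure D3:**
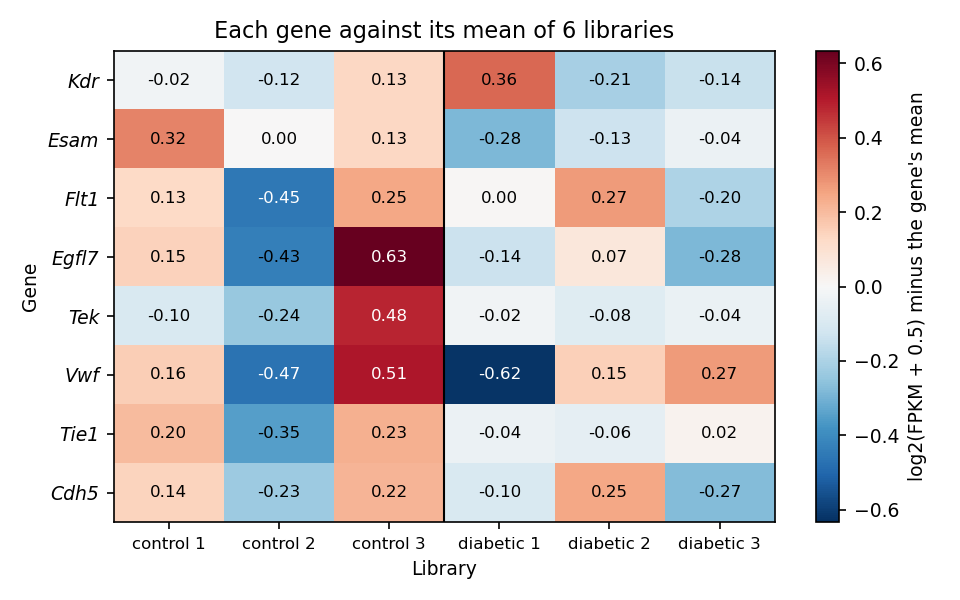
Log2(FPKM + 0.5) of each gene in each of the 6 libraries minus the mean of that gene, with genes in rows ordered by level and libraries in columns. Control 2 is below the mean in every gene but Esam, where it is 0.0025, and control 3 is above it in all 8 genes, with up to 0.63 in Egfl7. Diabetic 1 holds the highest Kdr (0.36) and the lowest Vwf (-0.62).

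The genes whose profile was most like the mean profile of the 6 tested members were taken by the root mean square distance of centred log2 values over the 6 libraries. These were Pdss1 (distance 0.03), Rnf144b (0.04), Slc27a1 (0.04), Caskin2 (0.05), AABR07006724.1 (0.07) and St5 (0.07). The distances of the members were 0.09 for Tie1, 0.11 for Tek, 0.14 for Cdh5, 0.15 for Flt1, 0.16 for Egfl7, 0.19 for Esam, 0.25 for Kdr and 0.27 for Vwf. Of 13782 genes compared, 7024 were closer to the mean profile than Vwf, 5558 than Kdr, 1934 than Esam and 28 than Tie1. Kdr thus lay farther from the mean profile than all other members but Vwf. The tested members are themselves part of that mean.

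Other genes known from endothelial cells were also at low level. Of 25 such genes, 14 had a mean below 0.5 FPKM and 11 were tested, of which 0 passed and 0 had an unadjusted p below 0.05 (limma). Of the 11 tested genes 8 were lower and 3 higher in diabetic retina, with a median log2 difference of -0.21, and 4 had groups that did not overlap, where 26.2% of tested genes did not. Eng, the TGF-beta coreceptor endoglin, measured 1.10, 0.790 and 1.57 FPKM in the control rats, against 0.537, 0.642 and 0.697 FPKM in the diabetic rats. All its diabetic values were below all controls, and its log2 difference of -0.53 did not pass (adjusted p = 0.277, limma). S1pr1, the sphingosine-1-phosphate receptor of endothelial cells, which astrocytes also express, had a log2 difference of -0.32 (adjusted p = 0.301), and Calcrl, the receptor subunit for adrenomedullin, had 0.37 (adjusted p = 0.324). Control 2 was the lowest control in 15 of the 25 genes and control 3 the highest in 15.

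In the list of VEGF, angiopoietin and Notch signalling, 0 of 12 tested genes passed. At an unadjusted p below 0.05 there were 2, both lower in diabetic retina (limma). Of all tested genes 19.9% had such a p, and 10.7% had it and were lower. By sign 4 of the 12 were lower and 8 higher, with a median log2 difference of 0.04. Vegfa, the ligand of Kdr and Flt1, measured 89.6, 86.7 and 96.3 FPKM in the control rats, against 80.2, 81.2 and 80.7 FPKM in the diabetic rats. Its groups did not overlap, and the log2 difference was -0.17, standard error 0.07 (adjusted p = 0.239, limma). It was -0.0326 with TPM and -0.0241 with quantile normalization, and the adjusted p lay between 0.159 and 0.905 over the alternatives. Pdgfb, the growth factor by which endothelial cells recruit pericytes, measured 1.05, 0.757 and 1.61 FPKM in the control rats, against 0.481, 0.486 and 0.509 FPKM in the diabetic rats. Its log2 difference of -0.69 had a standard error of 0.25 (adjusted p = 0.205, limma), and the groups did not overlap. Pdgfb rested on 20 to 45 fragments in each control and 18 to 21 in each diabetic library. Leaving out 1 library gave it a log2 difference from -0.86 to -0.49. Vegfa and Pdgfb were the 2 of 12 tested genes without overlap, where 26.2% of all tested genes had none. Angpt2, the angiopoietin that endothelial cells release, had a log2 difference of 0.10 (adjusted p = 0.802), the VEGF coreceptor gene Nrp1 had 0.02 (adjusted p = 0.951) and Pgf, a ligand of Flt1, had 0.30 (adjusted p = 0.526). Angpt1, the activating ligand of Tek, was at 0.506 ± 0.206 and 0.422 ± 0.117 FPKM (SD, n = 3 each), below the level required for testing.

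Of 13 tested genes of the blood-retina barrier, 0 passed, and 1 was higher and 1 lower at an unadjusted p below 0.05, where 9.15% of all tested genes were higher and 10.7% lower. Tjp1, the tight junction scaffold ZO-1, which neurons and glia also express, measured 27.0, 29.8 and 34.7 FPKM in the control rats, against 35.4, 40.0 and 40.0 FPKM in the diabetic rats, a log2 difference of 0.33 (adjusted p = 0.180, limma). Over the alternatives this difference lay between 0.16, with the length trend removed, and 0.47, with TPM. The adjusted p in limma lay between 0.0647 and 0.406 over them. Slco1a4, an organic anion transporter of barrier endothelium, measured 4.18, 3.00 and 4.26 FPKM in the control rats, against 2.79, 2.44 and 2.38 FPKM in the diabetic rats, a log2 difference of -0.49 (adjusted p = 0.186, limma). Neither had overlapping groups, and these were 2 of the 13 tested genes, where 26.2% of all tested genes had no overlap. Plvap, the diaphragm protein of leaky, fenestrated vessels that barrier endothelium lacks, was at 1.74 ± 0.171 and 1.67 ± 0.0812 FPKM (SD, n = 3 each), with a log2 difference of -0.04 (adjusted p = 0.916, limma). Cav1, the caveolin gene, had -0.26 (adjusted p = 0.518). Among genes of endothelial activation 3 were tested and 0 had an unadjusted p below 0.05 (limma), with log2 differences of 0.39 for Icam1, -0.21 for Edn1 and 0.01 for Vcam1.

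Mural cells, the pericytes and smooth muscle cells that wrap the same vessels, were read from 14 markers. Of 10 tested, 0 passed and 2 had an unadjusted p below 0.05, both lower in diabetic retina, and 4 had groups that did not overlap. Of all tested genes 10.7% were lower at such a p and 26.2% did not overlap. By sign 6 of the 10 were lower and 4 higher in diabetic retina. Rgs5, a pericyte gene, measured 5.95, 5.16 and 9.92 FPKM in the control rats, against 4.17, 4.26 and 3.43 FPKM in the diabetic rats, or -0.71 on the log2 scale, with a standard error of 0.23 (adjusted p = 0.181, limma). Without control 3 this difference was -0.45. Acta2, the smooth muscle actin gene, had -0.70 (adjusted p = 0.176), and the PDGF receptor gene Pdgfrb had -0.37 (adjusted p = 0.302). The 4 higher genes, named after their values were seen, were Ndufa4l2 with 0.59, Mcam with 0.39, Kcnj8 with 0.26 and Abcc9 with 0.04, and none had an unadjusted p below 0.05. The summed level of the mural list was 20.2 to 26.9 FPKM in control and 16.6 to 21.2 FPKM in diabetic retina. Whether these genes differ from the endothelial members in their response was not tested.

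Markers of other cells that can carry member transcripts or come from outside the neural retina were summed in the same way. The 7 members other than Kdr summed to 11.1 to 17.0 FPKM in control and to 11.2 to 13.5 FPKM in diabetic retina. Esam, at 5.74 to 8.97 FPKM over the libraries, was the largest part of this sum. The microglia and leukocyte list summed to 18.1 to 28.9 FPKM in control and 14.1 to 18.9 FPKM in diabetic retina, the pigment epithelium list to 46.6 to 97.2 and 42.8 to 99.2 FPKM, and the list of choroidal melanocytes to 6.06 to 8.57 and 2.46 to 5.23 FPKM. In the melanocyte list, 2 of 3 tested genes had an unadjusted p below 0.05 and both were lower, Tyrp1 with a log2 difference of -1.25 and Pmel with -1.03 (adjusted p = 0.157 and 0.176, limma). In the microglia list these were 2 of 7, also lower, the complement genes C1qa with -0.73 and C1qb with -0.59 (adjusted p = 0.156 and 0.170, limma). Of all tested genes 10.7% were lower at such a p. By sign 6 of the 7 microglia and leukocyte genes were lower and 1 was higher. The higher gene was the microglial receptor gene Cx3cr1, with a log2 difference of 0.55 (adjusted p = 0.405, limma). The choroid behind the pigment epithelium has its own dense vessels, and the part of carried-over choroid in the values of the endothelial genes was not tested. Of the platelet markers Itga2b was between 1.22 and 2.68 FPKM and the other 5 were below 1 FPKM in every library, with Gp1bb listed at 0 in all 6 libraries and Pf4 at 0.736 FPKM in control 3, 0.666 FPKM in diabetic 3 and 0 in the others. The fibroblast and lymphatic list was at 8.73 to 14.1 FPKM in control and 13.9 to 16.3 FPKM in diabetic retina, mostly from Pdpn and Pdgfra, which retinal glia also express.

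**Figure D4:**
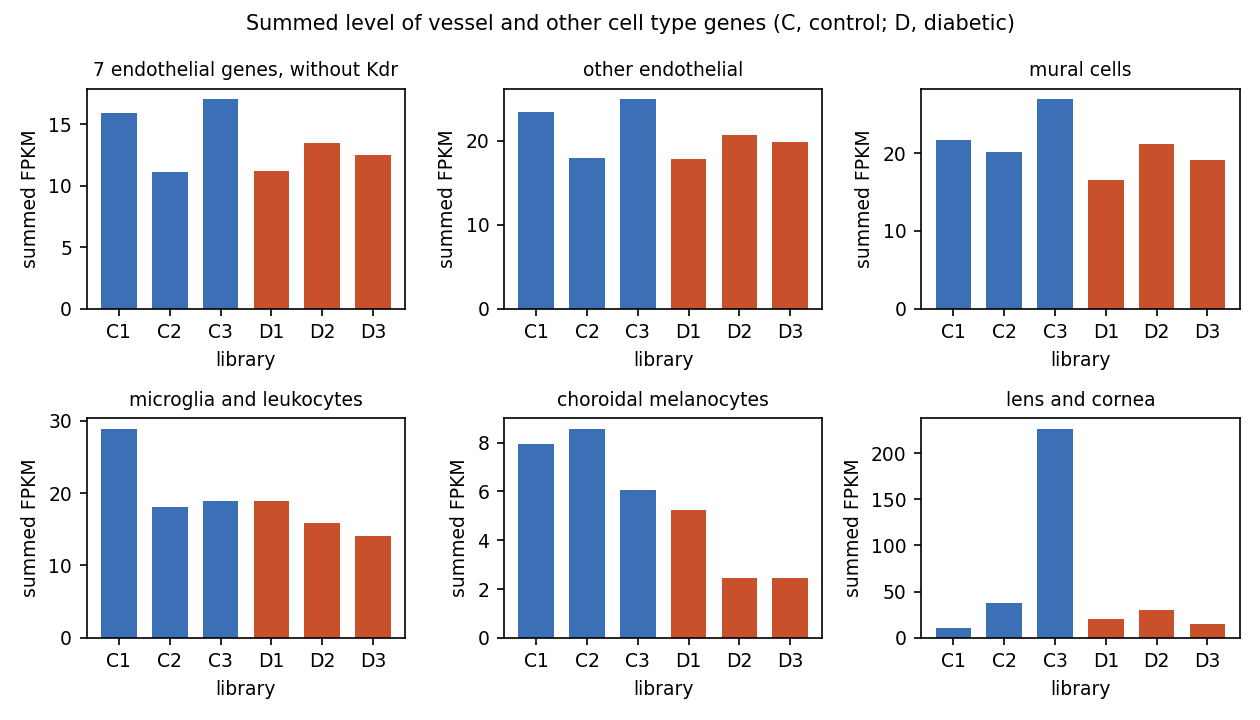
Summed FPKM in each library (C1 to C3 control, D1 to D3 diabetic) for the 7 endothelial members without Kdr, the 25 other endothelial genes and 4 marker lists of other cells, with all axes starting at 0. Control 3 is the highest library for the endothelial and mural lists and for lens and cornea (226.5 FPKM), and the melanocyte list is lower in all 3 diabetic libraries.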

How the data were processed

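Poly-A RNA of whole retina from 3 control and 3 diabetic rats was sequenced in read pairs, per the labels' protocols. HISAT2 2.0.5 is named in the submitters' processing notes, with counter, build and annotation not given in the sources used here. Values were deposited as FPKM with gene lengths and coordinates, per the file headers. Multiplied by length, 100% of the values above 0 lay within 0.05 of whole fragments, which gave fragments per library. Genes whose mean reached 0.5 FPKM were tested on log2(FPKM + 0.5), a scale that understates changes of low genes. The test was limma 3.58.1 under R 4.3.3 (group term, intensity trend, two-sided, Benjamini-Hochberg over 16363 genes, threshold 0.05), tested on simulated data. The members and lists were chosen with earlier results of these data known. Named were all members, up to 3 genes of smallest p per list, 7 set genes (Vegfa, Angpt1, Angpt2, Nrp1, Plvap, Pdgfrb, Rgs5) and the 6 closest profiles, not all of which are discussed. Cryaa, Cdc45, Gp1bb, Pf4, Hbb and Alas2 were named after their values were seen, and 1 item is not reported here. The alternatives comprised pseudocounts, filters, scalings, variance models, a removed length trend, voom with rebuilt fragments, coding genes only, a replicate block and the omission of single libraries. Figures were drawn with matplotlib 3.10.9.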

Additional observations from a re-analysis of the deposited data

How the results depend on the processing

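The number of members that passed was 0 under all 19 alternatives, and the median log2 difference of the 8 genes lay between -0.24 and 0.06. Over all genes, 2 passed with voom and between 0 and 4 when 1 library was left out (4 without diabetic 1, 1 without control 2 and 1 without diabetic 2). Replicate numbers do not pair the samples by the labels, and deviations of samples with the same number had correlations of -0.05, -0.08 and 0.000607 over genes; with the replicate block 0 members and 0 genes passed, so no call changed, and the median was -0.09. Some uncalled differences changed sign, and not all of these were near 0. Egfl7 went from -0.23 to 0.027 without control 3, and Vwf from -0.14 to 0.14 without diabetic 1. The cause was not tested. With the length trend removed, Kdr was -0.15, Flt1 -0.12, Hba-a2 0.066, Nrp1 -0.11 and Vcam1 -0.0694. With library medians set equal, Kdr was -0.0390, Hba-a3 -0.0331, Nrp1 -0.0269 and Vcam1 -0.0413. With quantile normalization, Flt1 was -0.0222, Hba-a2 0.0124, Hba-a3 -0.0713, Nrp1 -0.0444 and Vcam1 -0.0634. With TPM, Hba-a2 was 0.061 and Plvap 0.077, and with a pseudocount of 1 Hba-a3 was -0.032. Leaving out 1 library gave -0.17 to 0.11 for Kdr, -0.16 to 0.19 for Flt1, -0.51 to 0.027 for Egfl7, -0.24 to 0.12 for Tek, -0.40 to 0.14 for Vwf, -0.24 to 0.05 for Tie1, -0.23 to 0.031 for Cdh5, -0.025 to 0.22 for Angpt2, -0.20 to 0.0036 for Hba-a2, -0.51 to 0.56 for Hba-a3, -0.0016 to 0.061 for Nrp1, -0.080 to 0.023 for Plvap and -0.073 to 0.10 for Vcam1. Depth limits the precision of Cdh5 and Tie1, since control 2 held 6 fragments of Cdh5 and 13 of Tie1.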

Other observations

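Genes of red blood cells, which fill the vessels unless the eye is perfused, did not give 1 picture. Hba-a2, an alpha-globin gene, was between 40.5 and 54.2 FPKM in the 6 libraries, a level close to that of Kdr. Hbb measured 0.267, 0.251 and 0 FPKM in the control rats, against 0.159, 0 and 0 FPKM in the diabetic rats, and Alas2, the first enzyme of heme synthesis in red cell precursors, was between 0.0671 and 0.242 FPKM. The symbol Hba-a2 occurs in 2 rows, and globin genes have near-identical copies, so these values are uncertain. Other beta-globin genes were not analysed here. The log2 difference of Hba-a2 was -0.08 (adjusted p = 0.798, limma) and that of Hba-a3 was 0.01 (adjusted p = 0.992, limma).

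The ratio of Kdr to Cdh5 was 158.3, 366.6 and 154.2 in the control rats 1, 2 and 3, against 346.9, 115.7 and 422.8 in the diabetic rats 1, 2 and 3. Itga2b, an integrin gene of platelets, measured 2.26, 2.68 and 2.05 FPKM in the control rats, against 1.59, 1.63 and 1.22 FPKM in the diabetic rats, with no overlap between groups and a log2 difference of -0.52 (adjusted p = 0.188, limma), while the platelet gene Gp1bb was listed at 0. Of all tested genes 26.2% had groups without overlap.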
